A study of Mus musculus with 14 samples.

Results

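The T-cell lymphoma line was compared with the other blood-cell lines of a panel of mouse cell lines that contribute to a pooled reference RNA. The comparison used 4 of the 14 two-colour spotted arrays: 1 of the T-cell Lymphoma cell line, 1 of the Macrophage cell line and 2 of the myeloma cell line. On each array the line's total RNA was labelled with Cy5. The common channel, Cy3, held the stratagene mouse reference, which is sold as a pool of RNA from mouse lines. Each probe's log2 ratio of line over pool on the T-cell lymphoma array was set against the mean of the macrophage line and the myeloma line, whose 2 arrays were averaged first. The pool cancels from this difference, and so does a level that all 3 lines share. The labels name no strain, sex, age, treatment or culture for these lines. Titles speak of cell lines and another label of primary tissue; the titles were followed. The other 10 arrays, of 8 lines not of blood, entered the fit that estimated the spread, and their levels are given only where they place a gene.

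A T-cell lymphoma is a tumour of T lymphocytes or of their precursors in the thymus. Mature T cells recognise antigen through the T-cell receptor, whose CD3 chains pass the signal inward: the kinase ZAP-70 binds the phosphorylated chains and phosphorylates the adaptor LAT, on which the further signalling complex assembles. T-cell identity is set in the thymus by transcription factors that include LEF1 and BCL11B. Macrophages are phagocytes rich in lysosomal proteins that present peptides on MHC class II, and a myeloma is a tumour of plasma cells, the antibody-secreting end stage of the B lineage. All 3 share genes common to leukocytes.

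As groups, the T-cell, macrophage and plasma or B-cell markers followed the labels of the blood arrays, though some single markers did not. Of 11 T-cell markers, 8 had a probe (Cd3e, Cd3d and Lck were not analysed here). Their median log2 ratio was 1.90 on the T-cell lymphoma array, with 7 of the 8 above 0, against -2.08 on the macrophage array and -0.77 and -1.02 on the myeloma arrays. Of these 8, Cd3g, Lat, Zap70 and Lef1 were chosen with earlier results of these data known. The median is therefore no separate check of the label. Among the remaining markers, Bcl11b was at 2.41 and Thy1 at 1.33 on the T-cell lymphoma array. Cd5 went the other way, at -0.63 on the T-cell lymphoma array and 2.08 on the macrophage array. Cd2, at 0.24 on the T-cell lymphoma array, was higher on the myeloma arrays (1.85 and 0.61). The 6 macrophage markers with a probe lay between -5.20 and -1.39 on the T-cell lymphoma array and between 1.41 and 3.83 on the macrophage array. The 7 plasma and B-cell markers lay between -3.09 and -0.56 on the T-cell lymphoma array, and none of their values on either myeloma array was below 1.38. The 5 fibroblast markers were at or below -2.60 on the T-cell lymphoma array. Of the 4 epithelial markers only Krt18, a keratin, was above 0 there, at 1.62, against 0.68 on the macrophage array and 0.43 and -4.58 on the myeloma arrays. Epcam (2.15 and 2.59) and Cdh1 (0.62 and 1.28) were above 0 on both myeloma arrays.

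Across probes, the 2 myeloma arrays correlated with each other at r = 0.676, the T-cell lymphoma array with the macrophage array at 0.388 and with the myeloma arrays at 0.486 and 0.313. These correlations are across probes, which are not independent replicates, and all arrays share the reference channel. The 88 pairs of arrays of different lines ranged from -0.142 to 0.487. Of the other lines with 2 arrays, the mammary tumor pair correlated at 0.67. The fibroblast pair correlated at only 0.379, inside the range of pairs of different lines. Between 7551 and 7672 spots had a value on each of the 4 arrays, with medians between -0.065 and -0.002. Values spread more widely on the T-cell lymphoma and macrophage arrays (SD 1.16 and 1.14) than on the myeloma arrays (SD 0.993 and 0.978).

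Of 7423 probes tested, 106 (1.43%) were called different in the T-cell lymphoma line from the mean of the macrophage and myeloma lines: 48 (0.647%) higher and 58 (0.781%) lower. Calls were made in limma where the p, adjusted by Benjamini-Hochberg over all probes, was under 0.05. The probes called higher stood for 42 named genes and those called lower for 51. Before that adjustment 1339 probes had a p under 0.05. Differences of at least 1 on the log2 scale, called or not, were found for 14.8% of all probes upward and 12.2% downward, of at least 2 for 3.5% and 2.49%, and of at least 3 for 0.822% and 0.714%. Called differences ran from 2.25 to 6.42 on the log2 scale in the higher set (median 3.31) and from 2.26 to 6.95 in size in the lower set (median 3.13), against a median standard error of 0.498 over all probes. In the higher set the T-cell lymphoma value lay above every other blood array that had a value for 48 of 48 probes, which was so for 30.9% of all probes; Kif15 had a value on only 2 of those arrays. In the lower set it lay below all 3 for 58 of 58, against 29% of all probes below each one measured. Both counts follow largely from choosing probes by a large difference from these same arrays. They are no separate support for the calls.

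The T-cell lymphoma and macrophage lines had 1 array each, so their spread was taken from the 3 lines with 2 arrays (mammary tumor, fibroblast and myeloma), and nothing says that those pairs came from separate cultures; p-values then measure only a spread that may be technical. The calls leaned on which pair supplied that spread. With higher and lower calls given in that order, leaving out mammary tumor array 1 or 2 left 6 and 10, leaving out fibroblast array 1 gave 121 and 100, leaving out fibroblast array 2 gave 118 and 99, leaving out myeloma array 1 left 7 and 3, and leaving out myeloma array 2 left 0 and 0, with a lowest limma adjusted p of 0.058 and 1148 probes at an unadjusted p under 0.05. None of the calls against the mean given for single genes below therefore held without myeloma array 2. All 106 differences kept their sign in each of the 17 alternative settings that gave them a value. In several settings the sign could not change, because the difference itself stayed as it was. These were robust moderation, the other filters, the fit of the 4 blood arrays alone and leaving out a mammary tumor or fibroblast array. The kept sign is therefore no separate support for the calls. Fewer cells of a type and less RNA of a gene per cell cannot be told apart in such bulk RNA.

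The T-cell lymphoma array belonged to another run of image numbers in the labels (20140 to 20143) than the macrophage and myeloma arrays (20337 to 20344), so run and line cannot be told apart except through the fibroblast line, which had 1 array in each run. Treated as a random block, the image runs left 23 higher and 21 lower calls, all of them among the calls above. With the run as a fixed term, which rests on the fibroblast pair alone, limma called 0 probes (656 at an unadjusted p under 0.05; lowest adjusted p 0.313), and the 106 differences had the same sign. No comparison within a run was possible, since the T-cell lymphoma array was the only blood array of its run.

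**Figure D1:**
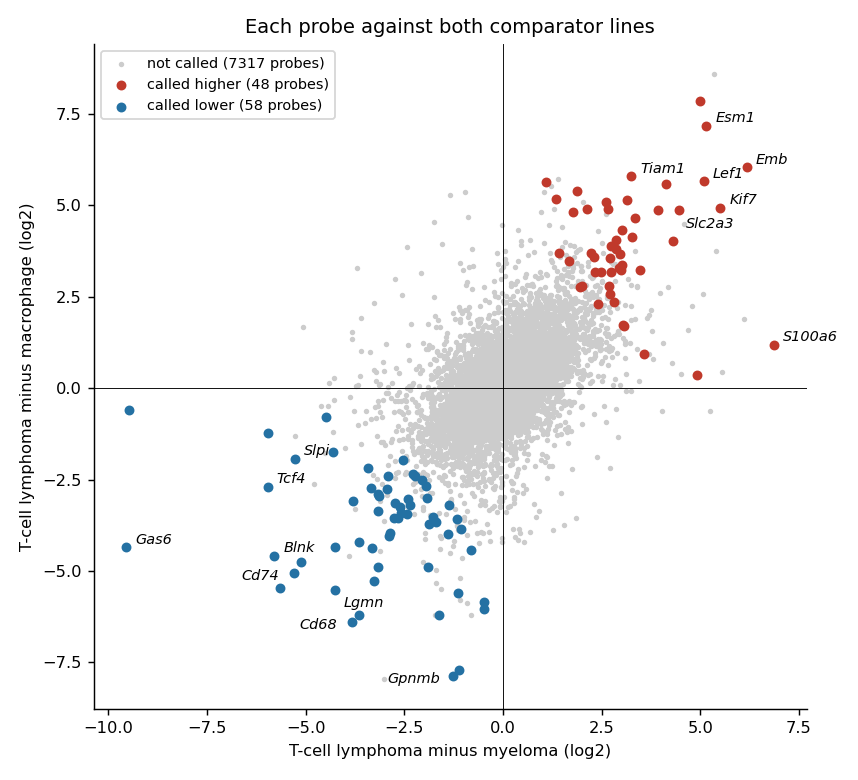
Difference of the T-cell lymphoma array from the macrophage array (vertical) against its difference from the mean of the myeloma arrays (horizontal), both on the log2 scale, 1 point a probe; red and blue mark the 48 and 58 probes called against the mean of both lines. Emb, Lef1 and Kif7 lie far from both comparators, S100a6 only from myeloma and Gpnmb only from macrophage; both axes share the T-cell lymphoma array, so the diagonal trend is built in.

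The mean of both comparators hides which of them sets a gene apart. Taken singly, the same fit called 150 probes (2.02%) against macrophage, 72 (0.97%) higher and 78 (1.05%) lower, and 107 (1.44%) against myeloma, 40 (0.539%) higher and 67 (0.903%) lower. Among the 48 probes called higher against the mean, 19 were also called against both lines, 20 against macrophage only, 8 against myeloma only and 1 against neither. Among the 58 called lower these counts were 19, 23, 13 and 3. A call against 1 line and not the other does not show that the lines differ, which was not tested for single genes. Of the higher set 45 had a T-cell lymphoma ratio above 0, that is above the pool, while 40 of the 58 in the lower set had a mean of the other blood lines above 0. In the higher set the T-cell lymphoma line was the highest of all 11 lines for 40 probes, as it was for 1517 of all 7423. In the lower set it was the lowest of all 11 for 32, as it was for 902 of all 7423. Choosing probes by the difference from the other blood lines favours such ranks, so these counts are no separate support.

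The 4 markers of the T lineage and its receptor, Cd3g, Lat, Zap70 and Lef1, were all called higher. They were chosen with earlier results of these data known. The 250 bases before their RefSeq start sites (GRCm38.p6), 5′ to 3′ on the gene's strand, are given because these genes moved together; capitals mark the motifs found. The windows are chr9:44980432-44980681 (minus strand) for Cd3g, chr7:126369569-126369818 (minus strand) for Lat, chr1:36761548-36761797 (plus strand) for Zap70 and chr3:131110047-131110296 (plus strand) for Lef1.
Cd3g: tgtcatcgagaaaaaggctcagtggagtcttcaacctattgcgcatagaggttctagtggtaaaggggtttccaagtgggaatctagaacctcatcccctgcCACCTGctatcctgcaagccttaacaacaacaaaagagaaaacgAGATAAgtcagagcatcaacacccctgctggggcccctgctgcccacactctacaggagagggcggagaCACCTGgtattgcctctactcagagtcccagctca
Lat: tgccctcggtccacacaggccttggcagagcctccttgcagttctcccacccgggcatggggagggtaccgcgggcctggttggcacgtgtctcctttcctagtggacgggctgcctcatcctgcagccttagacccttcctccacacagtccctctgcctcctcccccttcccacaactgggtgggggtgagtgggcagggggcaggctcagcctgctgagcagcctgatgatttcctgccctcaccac
Zap70: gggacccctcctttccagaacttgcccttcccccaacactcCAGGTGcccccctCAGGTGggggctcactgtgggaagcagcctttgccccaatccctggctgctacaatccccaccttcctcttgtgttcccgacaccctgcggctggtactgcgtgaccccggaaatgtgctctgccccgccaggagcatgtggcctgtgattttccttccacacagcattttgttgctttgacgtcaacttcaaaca
Lef1: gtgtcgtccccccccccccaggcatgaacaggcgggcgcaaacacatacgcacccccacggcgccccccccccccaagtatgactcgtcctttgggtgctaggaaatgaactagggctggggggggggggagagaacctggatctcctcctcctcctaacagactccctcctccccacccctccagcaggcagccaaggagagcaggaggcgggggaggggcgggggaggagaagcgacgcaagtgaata

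Motifs of factor families active in T cells were searched on both strands. For ETS factors the letters were CAGGAAG, with CCGGAAG as the alternative form. RUNX factors were searched as TGTGGTT. The TCF/LEF family was searched as CTTTGAA, with CTTTGAT as the alternative form. E proteins were searched as CAGGTG, with CAGCTG as the alternative form, and GATA factors as AGATAA. The Cd3g window held the E protein letters on the minus strand, read above as CACCTG, at 148 and 35 bases before the start, and the GATA letters at 104. The Zap70 window held CAGGTG at 209 and 196 bases before the start. The Lat and Lef1 windows held none of these letters, the table lists 3 starts for Zap70 and 4 for Lef1, of which the first was taken, and the Lat start lies downstream of the gene's annotated 5′ end. Of 32851 such windows, 27.7% held the E protein letters, 9.99% GATA, 17% ETS, 4.4% RUNX and 7.48% TCF/LEF. A match is a description of letters and was not tested as a site.

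Cd3g, the gamma chain of CD3, had a log2 ratio of 2.31 on the T-cell lymphoma array, -2.35 on the macrophage array and -1.39 and -0.67 on the myeloma arrays. The difference was 4.0 ± 0.54 (SE), or 16.0-fold if the values are base 2 (limma adjusted p = 0.033). Only the T-cell lymphoma array was above the pool, and the highest of the lines not of blood, mammary tumor, stood at -1.19. Lat, the adaptor, was at 2.12 against -2.02 in macrophage and -0.75 and -1.52 in myeloma, a difference of 3.70 ± 0.47 (adjusted p = 0.028). Zap70, the kinase, was at 1.68 against -2.13, -0.89 and -1.45, a difference of 3.33 ± 0.45 (adjusted p = 0.033). For both genes the groups did not overlap, and no line not of blood came within 3 log2 units of the T-cell lymphoma line. Each of the 3 genes was called against macrophage and against myeloma taken singly, the latter narrowly for Cd3g (3.34, adjusted p = 0.048) and Zap70 (2.85, adjusted p = 0.047).

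Lef1, which encodes a DNA-binding partner of beta-catenin and acts early in T-cell development, was at 2.18 in the T-cell lymphoma line against -3.49 in macrophage and -3.03 and -2.77 in myeloma. This difference of 5.37 ± 0.38 (41.5-fold, adjusted p = 0.015) was called in 14 of the 17 alternative settings, a number that no probe exceeded and that Emb, Gas6, Cd68 and 1 unnamed probe also reached. Among the other lines Lef1 was above the pool in myoblast alone, at 1.19. Bcl11b, a zinc-finger factor needed for commitment to the T lineage, was at 2.41 against -0.89, -0.79 and -0.29, a difference of 3.12 ± 0.49 (adjusted p = 0.044). It was above 0 in the T-cell lymphoma line alone. In limma Bcl11b was called against macrophage (3.29, adjusted p = 0.049) and not against myeloma (2.95, adjusted p = 0.053).

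**Figure D2:**
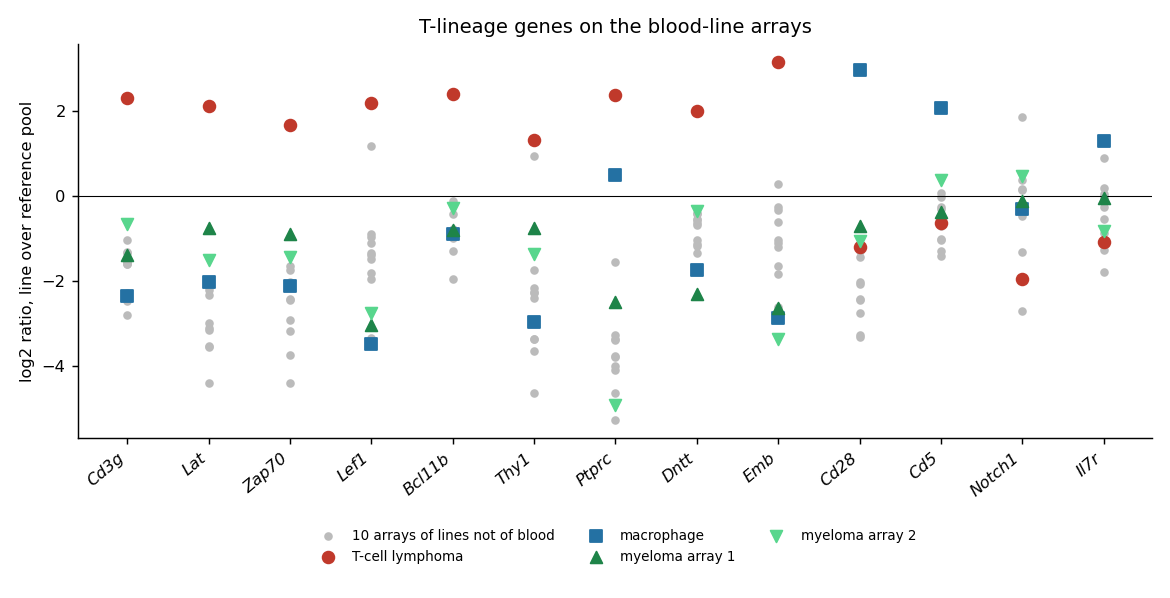
Log2 ratio of line over pool (vertical) of 13 T-lineage genes on the T-cell lymphoma, macrophage and 2 myeloma arrays, with the 10 arrays of lines not of blood in grey. Cd3g, Lat, Zap70, Lef1 and Bcl11b stand above every other array in the T-cell lymphoma line, while Cd28, Cd5, Notch1 and Il7r do not.

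Of 30 genes of T-cell receptor signalling that were tested, 3 were called higher (Cd3g, Lat and Zap70) and 0 lower, against 0.655% and 0.796% of all 6408 genes. These 3 are markers of this report, and markers and list were chosen with earlier results of these data known. Their count is therefore no separate support for the list. The median difference was 0.86 against 0.02 over all genes. Of the 30, 12 (40%) were at least 1 higher on the log2 scale and 0 at least 1 lower, where all genes gave 13.9% and 12.6%. The median kept its sign with quantile normalization (0.53), with arrays scaled to one spread (0.50) and with the run as a fixed term (1.25). At an unadjusted p under 0.05, limma gave 10 higher and 0 lower. Ptprc, the CD45 phosphatase of all leukocytes, had the largest difference of the list that was not called: it stood at 2.39 in the T-cell lymphoma line, 0.50 in macrophage and -2.51 and -4.93 in myeloma (4.0 ± 0.89, adjusted p = 0.094), and the part against myeloma was called (6.11, adjusted p = 0.040). At the lower end Ppp3cb, a catalytic subunit of calcineurin, differed by -0.93 (adjusted p = 0.278).

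T-cell surface molecules were mixed. Of 29 genes tested 1 was called higher and 0 lower, against 0.655% and 0.796% of all genes. At an unadjusted p under 0.05, limma gave 6 higher and 5 lower. The median was 0.22, which turned to -0.27 with the run as a fixed term. The gene called was Emb, which encodes embigin, a membrane glycoprotein that accompanies monocarboxylate transporters. It was at 3.16 in the T-cell lymphoma line and -2.88, -2.65 and -3.37 on the other blood arrays, a difference of 6.11 ± 0.50 (69.0-fold, adjusted p = 0.015) and nearly equal against each comparator (6.04 and 6.17). Testis, at 0.29, was the highest of the other lines. Thy1, the Thy-1 surface antigen of mouse T cells, stood at 1.33 against -2.98, -0.75 and -1.38, apart from all 3 other blood arrays but not called (3.35 ± 0.70, adjusted p = 0.082).

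Cd28, Cd5 and Cd2 were not above all other blood arrays. Cd28, the co-stimulatory receptor, was at -1.20 there, 2.97 in macrophage and -0.71 and -1.05 in myeloma; the difference from the mean was -2.25 (adjusted p = 0.079), and against macrophage alone it was called lower (-4.17, adjusted p = 0.029). Cd5, a receptor that dampens T-cell receptor signals, was at -0.63 against 2.08, -0.38 and 0.37 (-1.67, adjusted p = 0.189). Cd2, an adhesion receptor, was at 0.24 against -0.07, 1.85 and 0.61, inside the range of the other blood arrays. These values come from 1 probe a gene, and whether a probe measures its gene alone was not tested.

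Of 37 transcription factors of thymocytes and the T lineage, 2 were called higher (Lef1 and Bcl11b) and 0 lower. The shares of all genes were 0.655% and 0.796%. This list, and Lef1 as a marker, were chosen with earlier results of these data known, so the count is no separate support. The list's median was 0.08. Lyl1, a helix-loop-helix factor of blood progenitors, lay at the lower end (-2.38, adjusted p = 0.088). Among 12 genes of receptor-gene recombination and the pre-T stage limma called 0 (median 0.49; 2 higher and 1 lower at an unadjusted p under 0.05). Dntt, the terminal transferase that adds bases at receptor-gene joints, was at 2.00 against -1.75 in macrophage and -2.32 and -0.36 in myeloma (3.55, adjusted p = 0.088). Notch1, the receptor that directs progenitors to the T lineage, was at -1.95 against -0.31, -0.11 and 0.47 (-1.88, adjusted p = 0.113). Of 18 genes of cytotoxic and NK cells limma called 0 (0 higher and 4 lower at an unadjusted p under 0.05), and the median of 0.05 became -0.05 with quantile normalization, -0.02 with scaled arrays and -0.46 with the run as a fixed term. Lamp1, a lysosomal membrane protein that marks degranulation, lay lowest (-2.34, adjusted p = 0.112).

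Of 35 genes shared by leukocytes limma called 0 (5 higher and 5 lower at an unadjusted p under 0.05), 6 were at least 1 higher and 6 at least 1 lower (13.9% and 12.6% over all genes), and the median of 0.25 became -0.07 with the run as a fixed term. Coro1a, an actin regulator of leukocytes chosen after its values were seen, was at 2.11, 0.79, 0.24 and 0.37 on the T-cell lymphoma, macrophage and myeloma arrays (1.56, adjusted p = 0.203). The list's lower end was Cxcr4, the receptor for the chemokine CXCL12 (-2.25, adjusted p = 0.250). Of 27 genes of neutrophils, mast cells and erythroid cells limma called 0 (2 higher and 0 lower at an unadjusted p under 0.05), with a median of 0.41 that became -0.20 with the run as a fixed term. Its ends were Cpa3, a mast-cell carboxypeptidase (1.22, adjusted p = 0.226), and S100a8, a calcium-binding protein of neutrophils (-1.43, adjusted p = 0.280).

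Outside the T-lineage lists, the largest named difference above the other blood lines was that of Esm1, which encodes a proteoglycan known from endothelium. It was at 4.16 in the T-cell lymphoma line, -3.01 in macrophage and -0.33 and -1.66 in myeloma (6.16 ± 0.95, adjusted p = 0.044). The difference was called against macrophage alone (7.17, adjusted p = 0.040) and not against myeloma alone (5.15, adjusted p = 0.071). Slc2a3, the glucose transporter GLUT3, was at 2.82 against -2.06, -2.03 and -1.24, a difference of 4.67 ± 0.45 (25.4-fold, adjusted p = 0.017), and no line not of blood was above -1.52. It was the 1 gene called among 21 of glucose uptake and glycolysis, where 0.655% of all genes were called higher and 0.796% lower. That list's median was 0.28. Its lowest member was the enolase Eno2 (-0.99, limma adjusted p = 0.633), whose difference was 0.44 with the run as a fixed term. Kcnk4, a potassium channel, was at 2.10 against -3.50, -2.40 and -1.64 (4.86 ± 0.44, adjusted p = 0.015). Tiam1, an exchange factor for the GTPase RAC, named for invasion of T-lymphoma cells, was at 2.44 against -3.35, -0.97 and -0.63 (4.52 ± 0.61, limma adjusted p = 0.033). Its difference was called against macrophage (5.79, adjusted p = 0.026) and not against myeloma (3.24, adjusted p = 0.072). Avpr1a, a vasopressin receptor, differed by 4.15, with testis at 1.88 close to the 2.01 of the T-cell lymphoma line. In limma it was called against macrophage (5.15, adjusted p = 0.029) and not against myeloma (3.15, adjusted p = 0.077). Bmp7, a bone morphogenetic protein, was at 1.89 against -3.20, -0.75 and -0.68, a difference called against macrophage (5.09, adjusted p = 0.023) and not against myeloma (2.60, adjusted p = 0.077).

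Kif7, a kinesin of the Hedgehog pathway, had the highest T-cell lymphoma ratio of all probes, 6.11, against 1.17 in macrophage and 0.48 and 0.72 in myeloma (5.22 ± 0.53, adjusted p = 0.020). Kif15, a kinesin of the mitotic spindle, was at 4.52 against 0.51 in macrophage and 0.23 on myeloma array 2, and had no value on myeloma array 1 (4.16 ± 0.42, adjusted p = 0.026). If the pool held equal parts of 11 lines, RNA found in 1 line alone would reach at most 3.46, the log2 of 11. On the T-cell lymphoma array 8 probes exceeded that level, of which 3 were called (Kif7, Kif15 and Esm1). Kif15 and Kif7 carry consecutive probe numbers, 1251 and 1252, while the neighbours on either side, Kif1b and Kif1c, were at -0.31 and 0.04. Pdlim5 and Ksr1 among the higher calls also had consecutive numbers, as did Ifi203 and an unnamed probe among the lower calls. No label relates probe numbers to positions on the slide, and the part of position in these ratios was not tested.

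Some genes were called higher while the T-cell lymphoma line stood near or below the pool. S100a6, a calcium-binding protein, was at -0.35 in the T-cell lymphoma line, -1.54 in macrophage and -6.79 and -7.66 in myeloma (4.03 ± 0.49, adjusted p = 0.026). The T-cell lymphoma line ranked 7 of 11 for it, and the difference from macrophage was not called (1.19, adjusted p = 0.372). Gsn, which encodes the actin-severing protein gelsolin, showed the same order: 0.44 against -0.49 in macrophage and -3.17 and -3.09 in myeloma (2.25 ± 0.38, adjusted p = 0.0495, just under the threshold). Tgfb3 was at -0.45 in the T-cell lymphoma line and -4.78, -3.48 and -3.47 in the other blood arrays (3.67 ± 0.39, adjusted p = 0.021), with 4 lines above it. Flna, the actin crosslinker filamin A, was at 0.19 against -4.71, -2.76 and -2.18 (3.78 ± 0.56, limma adjusted p = 0.038). That probe was called against macrophage (4.90, adjusted p = 0.029) and not against myeloma (2.66, adjusted p = 0.093). The other probe of Flna differed by -0.20 and was not called (adjusted p = 0.939).

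**Figure D3:**
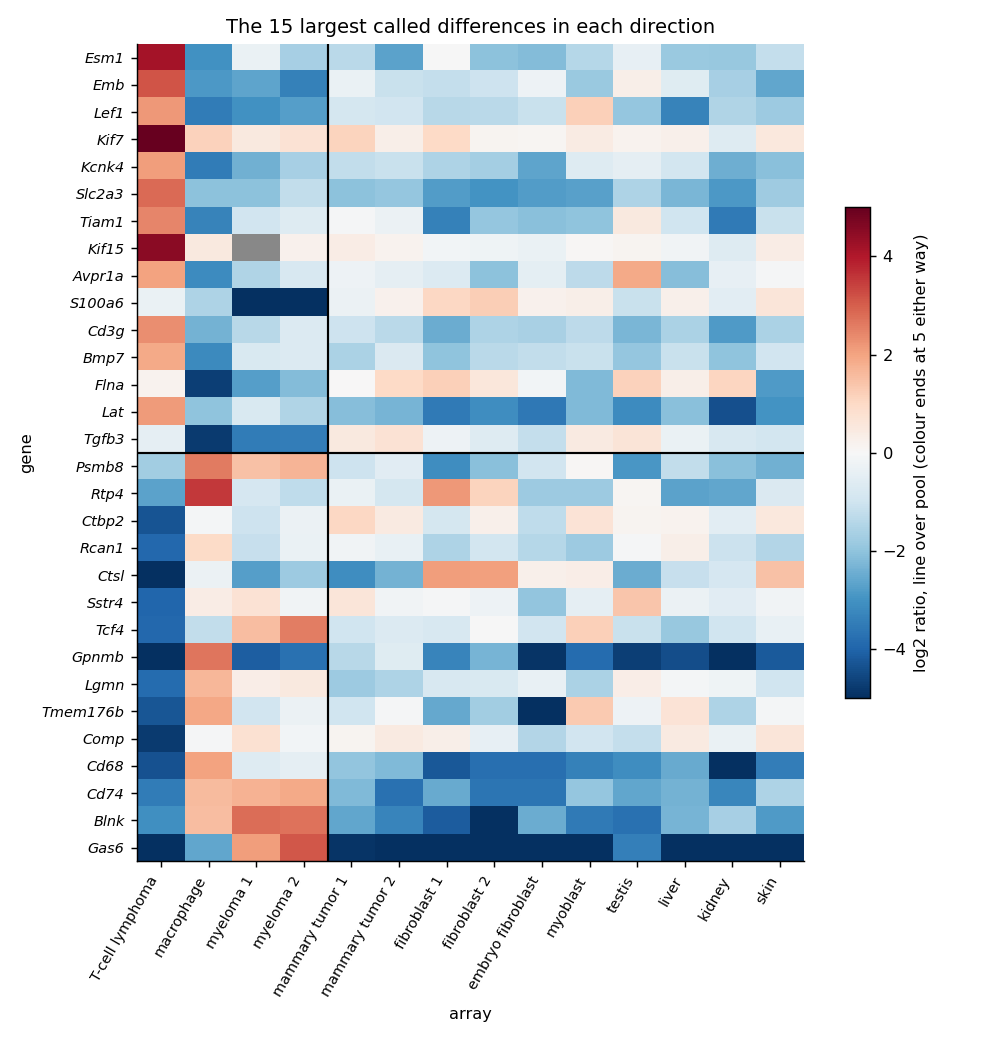
Log2 ratio of line over pool (colour, ending at 5 either way) on each of the 14 arrays for the 15 named genes with the largest called difference in each direction; grey marks a missing value. The T-cell lymphoma column is the darkest red for genes such as Emb, Slc2a3 and Lef1, whereas for S100a6 and Tgfb3 the pale T-cell lymphoma cell stands beside dark blue comparators.

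The largest difference below the other blood lines was that of Gas6, a ligand of the TAM receptor kinases. It was at -6.95 in the T-cell lymphoma line, -2.60 in macrophage and 2.11 and 3.09 in myeloma, a difference of -6.95 ± 0.64 (123-fold lower if base 2, adjusted p = 0.015). Only the myeloma arrays were above the pool. Of the lines not of blood testis was highest, at -3.44, and kidney, at -6.96, was as low as the T-cell lymphoma line. Comp, a cartilage matrix protein, was by contrast near the pool in the other lines and low here: -4.80 against -0.04, 0.75 and -0.14 (-4.93 ± 0.52, adjusted p = 0.021), the lowest of 11 lines. Sstr4, a somatostatin receptor, Rcan1, an inhibitor of calcineurin, and Ctbp2, a transcriptional corepressor, were likewise lowest of 11 lines here, with differences of -4.30, -4.04 and -3.93.

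Of 40 macrophage genes tested 0 were called higher and 4 lower (Cd68, Gpnmb, Plek and Lgals3), against 0.655% and 0.796% of all genes. The median was -1.34, 2 were at least 1 higher and 26 at least 1 lower, where all genes gave 13.9% and 12.6%. Against macrophage alone the median was -2.27, and against myeloma -0.42. Cd68, a lysosomal glycoprotein of macrophages, was at -4.37 in the T-cell lymphoma line, 2.01 in macrophage and -0.64 and -0.46 in myeloma (-5.10 ± 0.41, 34.4-fold lower, adjusted p = 0.015), and was called against each line singly. Gpnmb, a glycoprotein of macrophages and melanocytes, was at -5.20 against 2.67, -4.13 and -3.72 (-4.58 ± 0.55, adjusted p = 0.026), where the difference from macrophage alone was -7.88 and that from myeloma -1.28 (adjusted p = 0.321). The same held for Plek, a substrate of protein kinase C in platelets and leukocytes (-6.05 against macrophage and -0.48 against myeloma), and for Lgals3, a galectin of macrophages (-5.86 and -0.49). Cd36, a scavenger receptor, had the lowest difference of the list without a call. It was at -4.11 in the T-cell lymphoma line, 3.83 in macrophage and 0.25 and -2.41 in myeloma (-5.48 ± 1.25, adjusted p = 0.0999). C1qa, a chain of the complement component C1q, was the highest of the list in the other direction (2.41, adjusted p = 0.079).

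Of 24 genes of B and plasma cells, 0 were called higher and 2 lower, against 0.655% and 0.796% of all genes, with medians of -0.78 against the mean of both lines, -0.45 against macrophage and -1.22 against myeloma. Blnk, the adaptor that serves the B-cell receptor as LAT serves that of T cells, was at -3.06 in the T-cell lymphoma line, 1.54 in macrophage and 2.77 and 2.71 in myeloma (-5.20 ± 0.50, adjusted p = 0.017). The macrophage line was thus above the pool too, and both single comparisons were called (-4.59 and -5.80). Sdc1, the plasma-cell antigen CD138, was at -3.09 against -2.29 in macrophage and 1.38 and 1.41 in myeloma (-2.64 ± 0.44, adjusted p = 0.048), and only the part against myeloma was called. Tcf4, an E protein of B cells and plasmacytoid dendritic cells, followed the same order with -3.93, -1.23, 1.53 and 2.55 (-4.33 ± 0.56, adjusted p = 0.029). Pax5, a master regulator of B cells, was the highest of the list at a difference of 1.42 (adjusted p = 0.264).

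Cd74, the invariant chain that escorts MHC class II and the 1 class II gene tested, was at -3.48 in the T-cell lymphoma line, 1.57 in macrophage and 1.75 and 1.89 in myeloma (-5.18 ± 0.71, adjusted p = 0.033). The 3 comparator arrays lay together above the pool, and every line not of blood was at or below -1.52, with embryo fibroblast at -3.67. Of 8 genes of MHC class I and antigen processing 0 were called higher and 2 lower, against 0.655% and 0.796% of all genes. The median was -1.25, and it was -1.09 against macrophage and -1.52 against myeloma. Psmb8, an immunoproteasome subunit, was at -1.75 against 2.61, 1.45 and 1.69 (-3.84 ± 0.52, adjusted p = 0.033), and its other probe gave -2.94 without a call (adjusted p = 0.075). B2m, the light chain of all MHC class I molecules, was at -1.83 against 1.41, 0.46 and 1.10 (-2.93 ± 0.47, adjusted p = 0.046), the lowest of 11 lines. Canx, a chaperone of the endoplasmic reticulum, differed by 1.07 in the other direction (adjusted p = 0.284).

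Of 23 interferon-response genes, 0 were called higher and 2 lower, against 0.655% and 0.796% of all genes. Of the 23, 1 was at least 1 higher and 13 at least 1 lower, where all genes gave 13.9% and 12.6%. The median was -1.21, and it was -1.41 against macrophage and -0.76 against myeloma. Ifi203, a nuclear interferon-inducible protein, was at -3.09 against 1.81 in macrophage and -1.26 and -1.10 in myeloma (-3.40 ± 0.44, adjusted p = 0.029). Ifit3, an interferon-induced RNA-binding complex member, was at -1.48 against 2.94, -0.61 and -0.74 (-2.61 ± 0.40, adjusted p = 0.043). Both were called against macrophage and not against myeloma. Usp18, a protease that removes ISG15, was at the upper end (1.04, adjusted p = 0.247). Rtp4, an interferon-induced chaperone of membrane receptors outside that list, had the highest macrophage ratio of the 15 largest genes, 3.53, and stood at -2.67 in the T-cell lymphoma line and -0.84 and -1.27 in myeloma (-3.91 ± 0.54, adjusted p = 0.034).

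Of 42 lysosomal genes, 3 were called lower (Cd68, Lgmn and Ctsl) and 1 higher, against 0.796% and 0.655% of all genes, and the median was -0.80 (-0.79 against macrophage, -0.17 against myeloma). Lgmn, an asparagine-specific protease, was at -3.86 in the T-cell lymphoma line, 1.67 in macrophage and 0.32 and 0.49 in myeloma (-4.90 ± 0.38, adjusted p = 0.015), the lowest of 11 lines. Ctsl, the protease cathepsin L, was at -5.57 against -0.28, -2.73 and -1.83 (-4.28 ± 0.52, adjusted p = 0.026), while the fibroblast line averaged 2.08. The gene called higher was Acp5, the tartrate-resistant acid phosphatase of osteoclasts and macrophages, at 2.58 in the T-cell lymphoma line and -0.22, -0.02 and -0.16 on the other blood arrays (2.74 ± 0.39, adjusted p = 0.036). It was called against both lines singly. Tmem176b, a membrane protein of myeloid cells outside that list, was at -4.27 against 1.92, -0.94 and -0.30 (-4.92 ± 0.57, adjusted p = 0.026).

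**Figure D4:**
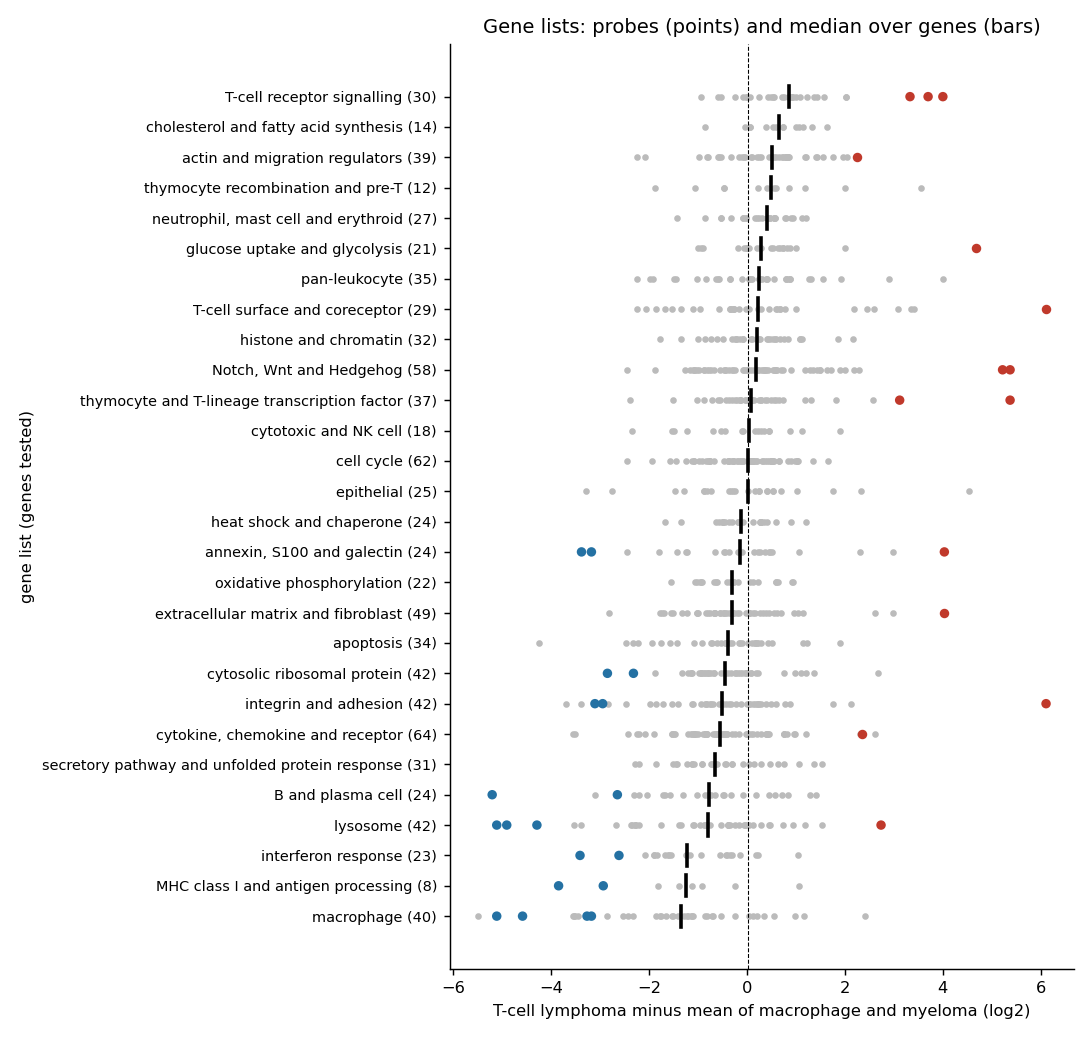
Difference of the T-cell lymphoma line from the mean of the macrophage and myeloma lines (horizontal, log2) for each probe of 28 gene lists; bars mark the median over genes, red and blue points the probes called higher and lower, and numbers in brackets the genes tested. Among the lists drawn, T-cell receptor signalling has the highest median (0.86) and the macrophage list the lowest (-1.34); MHC class II, with Cd74 alone at -5.18, is not drawn.

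Of 42 integrins and adhesion molecules 1 was called higher (Emb) and 2 lower, against 0.655% and 0.796% of all genes. The median was -0.50. F11r, a tight-junction adhesion molecule, was at -3.53 against 0.01, -0.93 and -0.81 (-3.10 ± 0.47, adjusted p = 0.041), and Cd151, a tetraspanin, at -2.65 against 0.80, -0.01 and -0.41 (-2.94 ± 0.47, adjusted p = 0.047). Cd81, another tetraspanin, had the largest negative difference of the list and was not called (-3.70, adjusted p = 0.069). Of 24 annexins, S100 proteins and galectins 1 was called higher (S100a6) and 2 lower (Lgals3 and Anxa3), against the same shares of all genes. The median of -0.15 became 0.03 with scaled arrays and 0.24 with the run as a fixed term. Anxa3, a phospholipid-binding annexin, was at -5.08 in the T-cell lymphoma line, 0.53 in macrophage and -3.31 and -4.59 in myeloma. Of 49 extracellular matrix and fibroblast genes 1 was called higher and 0 lower, against the same shares of all genes. The gene called was again S100a6, which is no matrix protein. The list's median of -0.31 became 0.13 with scaled arrays and 0.61 with the run as a fixed term. Timp2, an inhibitor of matrix metalloproteases, lay lowest (-2.82, adjusted p = 0.152). All 3 lines were far below the pool for that list, with medians of -2.90 in the T-cell lymphoma line, -2.86 in macrophage and -2.61 and -2.88 in myeloma. Among 25 epithelial genes limma called 0 (2 higher and 3 lower at an unadjusted p under 0.05; median 0.02, or -0.08 with quantile normalization), with Perp, a desmosomal protein induced by p53, highest (4.54, adjusted p = 0.111) and Epcam lowest (-3.28, adjusted p = 0.071).

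In signalling lists the calls were few. Of 58 genes of the Notch, Wnt and Hedgehog pathways 2 were called higher (Lef1 and Kif7) and 0 lower. The shares of all genes were 0.655% and 0.796%. The median was 0.19, and the lower end was Ccnd1, which encodes cyclin D1 (-2.44, limma adjusted p = 0.141). Of 64 cytokines, chemokines and receptors 1 was called higher and 0 lower, against 0.655% and 0.796% of all genes, with a median of -0.55. Of the 64, 4 were at least 1 higher and 19 at least 1 lower, where all genes gave 13.9% and 12.6%. The gene called was Tgfb1, a cytokine that restrains T cells, at 1.56 in the T-cell lymphoma line and -0.75, -0.96 and -0.71 on the other blood arrays (2.35 ± 0.38, adjusted p = 0.046). It was the highest of 11 lines. Tnfsf11, the cytokine RANKL, had the largest positive difference of that list and was not called (2.62, adjusted p = 0.191), and Ccl2, a chemokine for monocytes, the largest negative one (-3.54, adjusted p = 0.059). Of 39 actin and migration regulators 1 was called higher (Gsn) and 0 lower, against 0.655% and 0.796% of all genes. The median was 0.52. Of the 39, 9 were at least 1 higher and 2 at least 1 lower, where all genes gave 13.9% and 12.6%. Capg, an actin-capping protein, lay lowest (-2.23, limma adjusted p = 0.226).

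Of 62 cell-cycle genes limma called 0 (1 higher and 8 lower at an unadjusted p under 0.05; median 0.03, or -0.05 with quantile normalization and -0.04 with scaled arrays), and Cdkn1b, a cyclin-dependent kinase inhibitor, was highest (1.67, adjusted p = 0.155). Of 34 apoptosis genes it called 0 (1 and 8; median -0.38), although Pmaip1, the BH3-only protein NOXA, was at -3.03 against 1.56, 0.97 and 0.78 (-4.25 ± 0.88, adjusted p = 0.082), with Fasl, a death ligand, highest (1.90, adjusted p = 0.338; -0.36 with the run as a fixed term). Of 31 genes of the secretory pathway and unfolded protein response it called 0 (1 and 9), with medians of -0.65 against the mean, -0.21 against macrophage and -1.33 against myeloma, and Rpn2, of the oligosaccharyltransferase, lowest (-2.28, adjusted p = 0.075). Ero1a, an oxidase that serves disulfide formation, was highest (1.55, adjusted p = 0.407). Of 42 cytosolic ribosomal protein genes 0 were called higher and 2 lower, against 0.655% and 0.796% of all genes. The 2 were Rplp1 (-2.84, limma adjusted p = 0.043) and Rpsa (-2.31, adjusted p = 0.046). The other probe of Rpsa gave -0.72 (adjusted p = 0.468), and the list median was -0.44. Rpl12 was the highest of that list (2.68, adjusted p = 0.101). Limma called 0 of 22 oxidative phosphorylation genes (1 and 2; median -0.31), 0 of 24 heat-shock and chaperone genes (0 and 2; median -0.12, or 0.15 with the run as a fixed term), 0 of 32 histone and chromatin genes (5 and 2; median 0.21) and 0 of 14 genes of cholesterol and fatty acid synthesis (2 and 0; median 0.67). In these brackets the counts are the genes higher and lower at an unadjusted p under 0.05. The ends of these last lists were not called against the mean of both lines. They were Sdha and Ndufa2, of respiratory complexes II and I (0.95 and -1.55, adjusted p = 0.250 and 0.165), and the chaperones Hspa8 and Hspa4 (1.2 and -1.68, adjusted p = 0.334 and 0.139). The value for Hspa8 is that of 1 probe. With probes averaged by gene, no chaperone gene of the list exceeded 0.905. For chromatin the ends were the deacetylase Hdac1 and the DNA-binding protein Hmgb1 (2.16 and -1.76, adjusted p = 0.060 and 0.088). For lipid synthesis they were Cyp51, a sterol demethylase, and Srebf2, a regulator of sterol synthesis (1.64 and -0.86, adjusted p = 0.105 and 0.301).

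**Figure D5:**
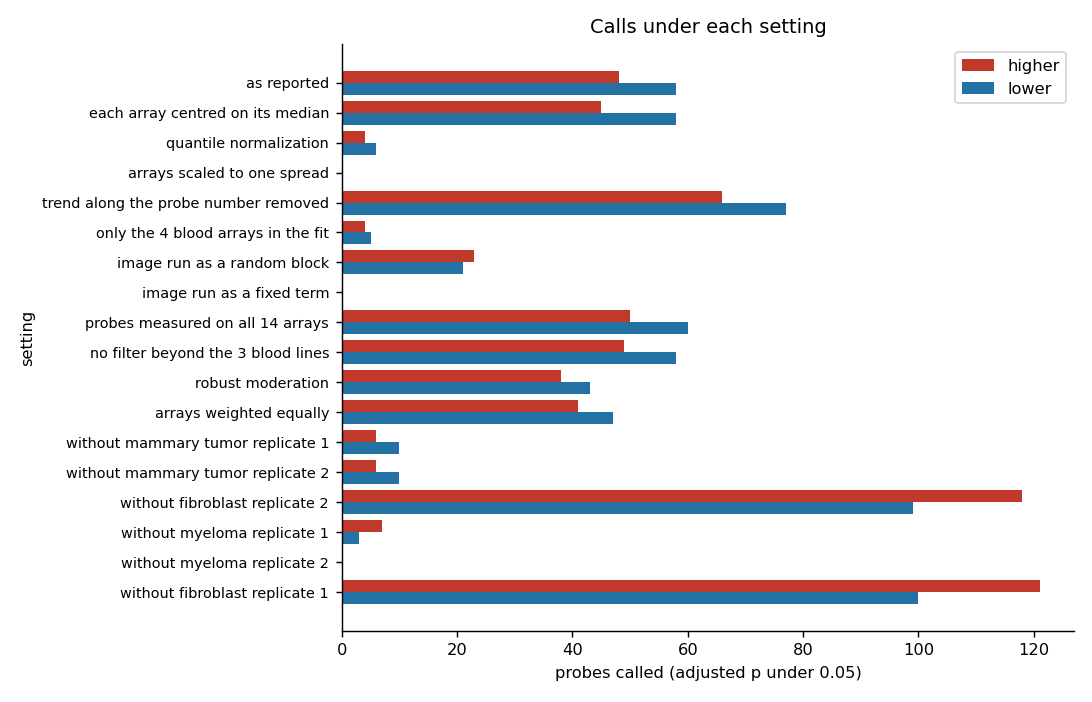
Number of probes called higher (red) and lower (blue) in the T-cell lymphoma line against the mean of the macrophage and myeloma lines, as reported and in each alternative setting; bars start at 0. Counts range from 0 with arrays scaled to one spread, with the run as a fixed term or without myeloma array 2, to 121 higher and 100 lower without fibroblast array 1.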

How the data were processed

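Log2 ratios of line over pool, 1 per spot and array, were used as the authors deposited them; the labels state neither background correction nor normalization nor spot filters. Base, direction and centring are not stated. If the lines entered the pool equally, the mean unlogged ratio of a probe over the lines is 1: its median was 1.00 read as log2, 1.20 with the sign turned, 1.07 as natural logs and 1.87 as log10. Over the 743 probes that varied most between lines it was 0.92, 3.11, 1.18 and 6.68 in the same order. Base 2 and natural logs are thus only weakly told apart. Base 2 and line over pool were assumed, all folds in the report rest on that, and centring stayed unknown. Array medians are given in the report.

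The table held 7680 probes with 423 of 107520 cells (0.393%) empty. After averaging 80 Gapdh spots, the 7423 probes measured in each of the 11 lines entered the tests. Of the probes, 6835 had 1 gene symbol in the platform annotation, 4 had several and 841 were unlisted; the last 2 kinds stayed unnamed. Symbols were updated through RefSeq gene identifiers for 6809. No per-sample column was left unused. Probes of a gene were tested singly and averaged for list medians.

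One limma 3.58.1 fit in R 4.3.3 (lmFit, eBayes, two-sided) over all 14 arrays had the 11 lines as groups, with 3 residual degrees of freedom plus 3.75 from moderation and a median residual SD of 0.430. The contrast was T-cell lymphoma minus the mean of macrophage and myeloma. The script was tested on simulated data. Figures were drawn with matplotlib 3.10.9. The number of arrays limits the precision.

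Named genes are the 15 largest called differences in each direction, the markers Cd3g, Lat, Zap70 and Lef1, each list's called members and its highest and lowest member; cell-type markers and Coro1a were named beside these. The comparison, the markers, the rule and the 29 gene lists were chosen with earlier results of these data known. Other settings centred, quantile-normalized or scaled the arrays, removed a trend along the probe number, changed the filter, moderation or weights, added the image run, or left arrays out.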

Additional observations from a re-analysis of the deposited data

How the results depend on the processing

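The calls against the mean of both lines (106 in all, 48 higher and 58 lower) became 10 (4 and 6) with quantile normalization, 44 (23 and 21) with the image run as a random block and 9 (4 and 5) with only the 4 blood arrays in the fit. With arrays scaled to one spread limma called 0 (0 and 0; 560 at an unadjusted p under 0.05), and with the run as a fixed term 0 (0 and 0; 656). Leaving out 1 array of a pair gave 0 to 221 in all, 0 to 121 higher and 0 to 100 lower. The 150 calls against macrophage became 11 with quantile normalization and 0 with scaled arrays (581 unadjusted), with only the 4 blood arrays (1253) and with the run as a fixed term (809); leaving out arrays gave 15 to 311. The 107 calls against myeloma became 17 with quantile normalization, 14 with only the 4 blood arrays and 0 with scaled arrays (629) and with the run as a fixed term (645); leaving out arrays gave 0 to 180. Scaling and quantile normalization narrow the wide T-cell lymphoma and macrophage arrays, and the fit of 4 arrays has 1 residual degree of freedom; the cause of the changes was not tested further. Centring, both other filters, robust moderation, equal weights and removal of the probe-number trend kept each count within 1.5 times, where they were run. No named difference that was called, as reported or in a setting, changed sign. Settings that alter only the spread or the probes tested could not change it. No paired analysis was possible because the T-cell lymphoma and macrophage lines have 1 array each and the lines compared share fewer than 2 replicate numbers.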

Other observations

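Further gene groups stood out among the calls. Their lists were written after the values were seen, so their counts describe these arrays only. A count above the share of all genes can follow from that choice and is no support for the group. Of 19 genes grouped under innate nucleic acid sensing, not all of them sensors themselves, 5 were called lower and 0 higher. The shares of all genes were 0.796% and 0.655%. The median was -1.25, against 0.02 over all genes. Zbp1, a sensor of Z-form nucleic acids, was at -1.48 in the T-cell lymphoma line, 1.25 in macrophage and 1.59 and 2.14 in myeloma (-3.04 ± 0.47, limma adjusted p = 0.043). Unc93b1, which escorts Toll-like receptors to endosomes, was at -1.57 against 0.62, 1.59 and 2.10 (-2.80 ± 0.41, adjusted p = 0.038). Both were lower than in all 3 other blood arrays. Apobec1, a cytidine deaminase, was at -1.30 against 2.56, -0.18 and -0.26 (-2.47 ± 0.40, adjusted p = 0.046), and Rtp4 and Ifi203 made up the rest.

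Of 37 peroxisomal genes, also listed after the values were seen, 3 were called lower and 0 higher, against the same shares of all genes. The list's median was only 0.05 (-0.03 with quantile normalization, -0.02 with scaled arrays). Pex11a, a membrane protein of peroxisome division, was at -3.43 against -0.03, -0.80 and -0.85 (-3.00 ± 0.41, adjusted p = 0.033). Phyh, which starts the breakdown of phytanic acid, was at -1.48, while the other blood arrays lay between 1.48 and 1.86 (-3.05 ± 0.43, adjusted p = 0.034). Decr2, a reductase for unsaturated fatty acids, was at -3.58 against 0.39, -0.94 and -0.49 (-3.42 ± 0.58, adjusted p = 0.048). All 3 were lowest of the 11 lines in the T-cell lymphoma line. The 50 genes of the TGF-beta superfamily and its signalling were likewise listed after the values were seen. Of these, 3 were called higher (Bmp7, Tgfb3 and Tgfb1) and 0 lower, against 0.655% and 0.796% of all genes. Their median was -0.12 (0.0035 with scaled arrays).

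Other called genes chosen after their values were seen were Izumo1r, the folate receptor 4 of regulatory T cells, at 2.13 against -1.25, -1.12 and -0.67 (3.20 ± 0.46, adjusted p = 0.037), and Celsr1, a planar-polarity cadherin, at 2.66 against -0.57, -0.79 and -0.83 (3.35 ± 0.40, adjusted p = 0.026). Both were called against each comparator singly and were highest in the T-cell lymphoma line. Dok3, an adaptor that restrains signalling in B cells and macrophages, was at -1.52 against 1.57, 2.50 and 2.08 (-3.45 ± 0.43, adjusted p = 0.028). Cntn3, a neural contactin, was high on the myeloma arrays alone, at 2.48 and 3.39, against -1.80 in macrophage and -3.02 in the T-cell lymphoma line. The largest positive difference of all belonged to an unnamed probe, number 5498, at 3.20 against -4.65, -2.19 and -1.39 (6.42 ± 0.55, adjusted p = 0.015).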
